A study of Caenorhabditis elegans with 3 samples.

Results

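The heterochronic genes time the larval stages of the nematode Caenorhabditis elegans, and 7 of them, lin-14, lin-28, lin-46, hbl-1, lin-42, lin-41 and lin-29, were described among 19973 protein-coding genes of the nuclear chromosomes. The members were chosen by name. For each, every peak was taken whose summit lay in the gene body or within 3000 bp upstream of it, a stretch called the window here. The data were chromatin immunoprecipitation and sequencing (ChIP-seq) peak lists for PQM-1, a zinc-finger transcription factor, from whole L1 larvae of mixed sex. The larvae were of strain OP201, which carries the unc-119(tm4063) mutation on chromosome III and the wgIs201 transgene, whose PQM-1 ends in a GFP-FLAG tag. There was 1 group with 3 biological replicates of this 1 strain and no other genotype, stage or treatment, so members were compared with each other, between replicates and with all genes. The promoter of the transgene is not given in the sources used here, and the tissues that supplied the bound chromatin of a whole larva cannot be told apart. Each replicate had a list of 30000 peaks with a signal value, a pooled list of 30000 peaks was called on all 3 together, and 682 pooled peaks passed the authors' irreproducible discovery rate (IDR) filter, which uses how consistently peaks are ranked. Ranks here run from 1 for the highest signal within a list. The 682 IDR peaks were the 682 highest-ranked peaks of the pooled list. A place among them therefore does not by itself show that a peak recurred in every replicate. Read depth is unknown, and because each list was cut at the same number of peaks, the absence of a peak does not show absence of binding.

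Heterochronic genes work as a sequence of switches, in which proteins of an early stage are removed so that the next stage can begin. LIN-14, a nuclear DNA-binding protein, and LIN-28, an RNA-binding protein, are high in the first larval stage and hold early cell fates until the microRNA lin-4 lowers them. HBL-1, a zinc-finger transcription factor related to Hunchback, and LIN-46, a protein related to gephyrin that acts downstream of lin-28, act in the middle stages. LIN-42, related to the clock protein Period, rises and falls with the moults. LIN-41, an RNA-binding protein targeted by the microRNA let-7, holds back LIN-29, the zinc-finger transcription factor that turns the epidermis to its adult state. PQM-1 is known for its link to the DAF-16-associated element, TGATAAG, and for roles in stress and metabolism.

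Without the lin-41 IDR peak or any lin-28 peak, the sequences below show what lay under some of the peaks described. Each is the 101 bases centred on the summit, read 5′ to 3′ on the strand of the gene from the RefSeq WBcel235 assembly, which is ce11, so that the summit is the middle base. In the first, the highest lin-14 peak (chrX:11482846-11482946, plus strand), capitals mark the complement of GATAAG. In the lin-42 peak ranked 877 (chrII:1239667-1239767, minus strand), the hbl-1 peak ranked 5589 (chrX:5820172-5820272, plus strand) and the lin-46 peak ranked 22851 (chrV:12969277-12969377, plus strand), no GATA-factor word was found and the capital marks the summit. In the lin-14 peak ranked 1941 (chrX:11481154-11481254, plus strand) and the lin-42 peak ranked 24424 (chrII:1246104-1246204, minus strand), capitals mark the GATA-factor word WGATAR, where W is A or T and R is A or G, on either strand. The last is kin-20 (chrX:15276422-15276522, minus strand), a pathway gene that is not one of the 7, whose IDR peak held that word.
lin-14 rank 394: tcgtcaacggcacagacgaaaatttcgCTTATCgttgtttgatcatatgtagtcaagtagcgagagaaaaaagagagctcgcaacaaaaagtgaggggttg
lin-42 rank 877: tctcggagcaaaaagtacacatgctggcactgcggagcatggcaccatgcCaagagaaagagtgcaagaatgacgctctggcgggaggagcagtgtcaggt
hbl-1 rank 5589: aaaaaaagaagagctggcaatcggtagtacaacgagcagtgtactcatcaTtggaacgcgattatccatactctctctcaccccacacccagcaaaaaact
lin-46 rank 22851: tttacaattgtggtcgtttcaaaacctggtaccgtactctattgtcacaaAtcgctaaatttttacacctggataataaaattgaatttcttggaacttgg
lin-14 rank 1941: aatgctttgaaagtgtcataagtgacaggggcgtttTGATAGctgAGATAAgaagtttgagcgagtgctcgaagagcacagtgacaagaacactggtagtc
lin-42 rank 24424: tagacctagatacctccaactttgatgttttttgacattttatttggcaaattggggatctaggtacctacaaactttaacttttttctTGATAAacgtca
kin-20 rank 537: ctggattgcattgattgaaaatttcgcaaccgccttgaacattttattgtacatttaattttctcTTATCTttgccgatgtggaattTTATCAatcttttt

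PQM-1 peaks that passed IDR lay in the windows of lin-14 and lin-41, 2 of the 7 members, against 4.1% of all protein-coding genes under the same rule. The other members, lin-28, lin-46, hbl-1, lin-42 and lin-29, had lower-ranked peaks alone. All 7 had at least 1 peak in the pooled list, as had 81.2% of all genes, and all 7 had at least 1 in each of replicates 1, 2 and 3, as had 80.4%, 80.4% and 80.6%. A peak of any rank is therefore the usual state of a gene in these lists and does not set the members apart. Among the 682 highest peaks of a replicate, replicate 1 held peaks of lin-14 and lin-41, against 4.16% of all genes. Replicate 2 held a peak of lin-14, against 4.34%. Replicate 3 held a peak of lin-42, against 4.42%. No member had a peak among the 682 highest of all 3 replicates. The share of all genes that did was not computed, but it cannot exceed the 4.16% of replicate 1. The lack of such a gene among 7 therefore does not set the members apart.

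**Figure D1:**
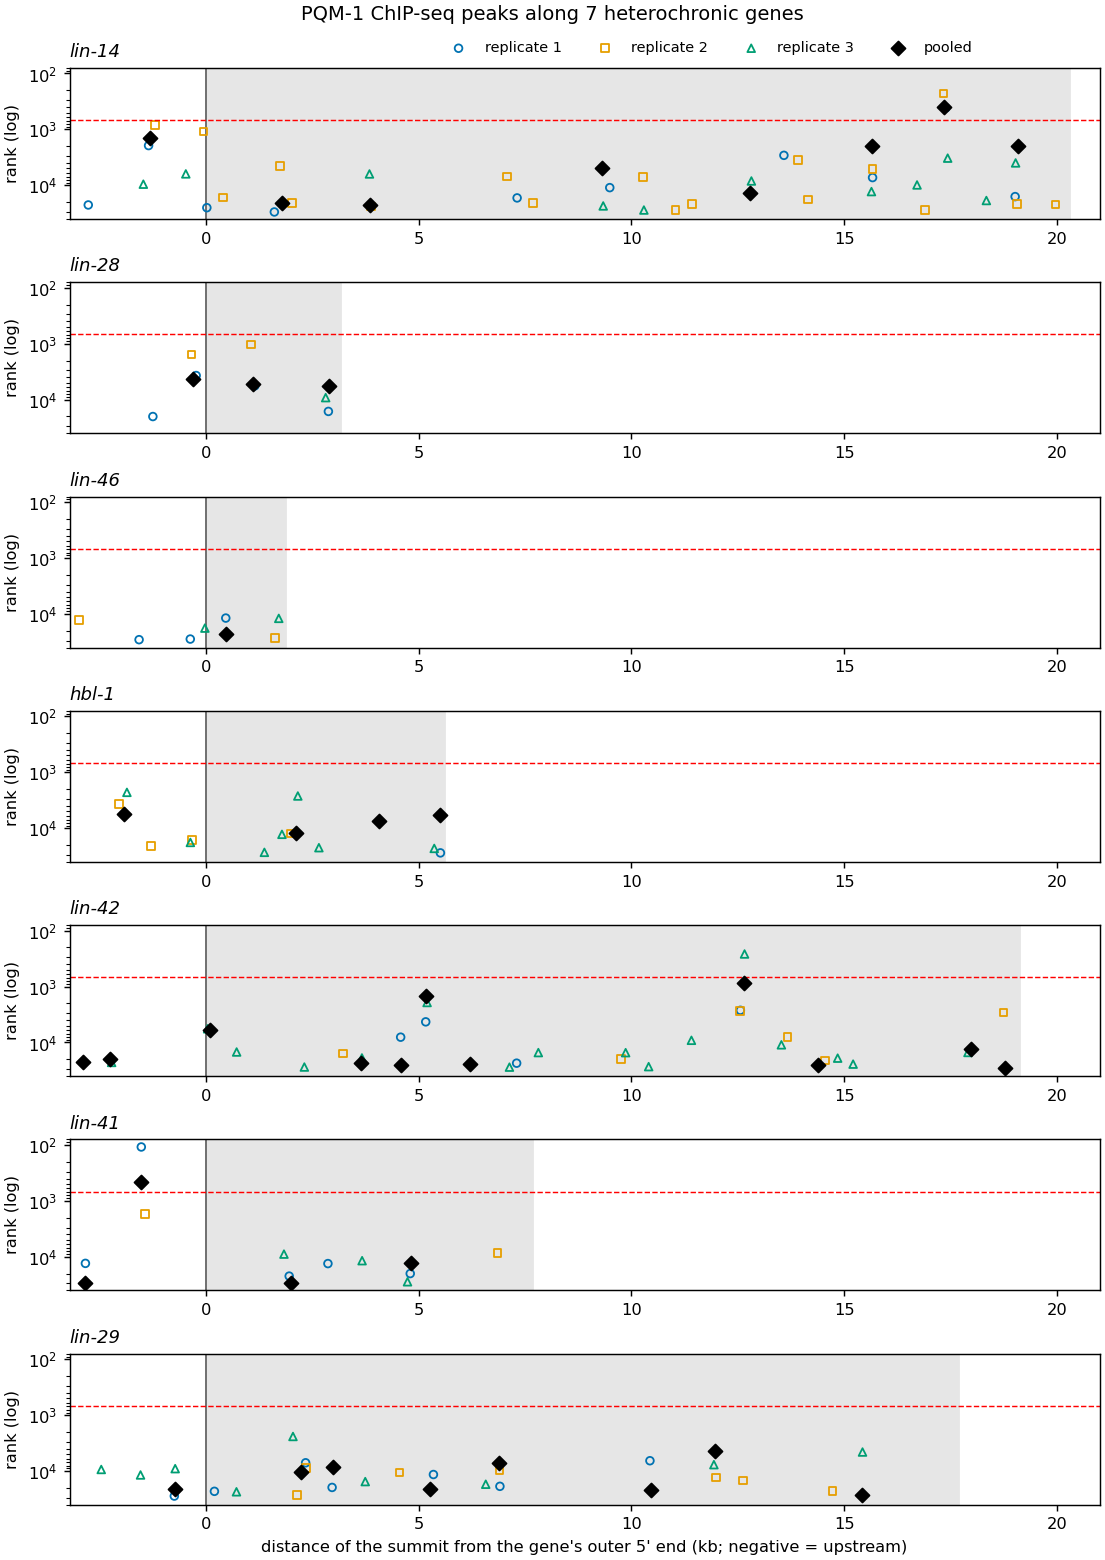
Rank of each peak (log axis, strongest at the top) against the distance of its summit from the outer 5′ end of the gene in kb, 1 panel per gene; the gene body is shaded, black diamonds are pooled peaks, open symbols are the peaks of replicates 1, 2 and 3, and the dashed line is rank 682. The pooled peaks of lin-14 ranked 394 and of lin-41 ranked 463 lie above the line, and the lin-42 peak ranked 877 lies just below it.

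The early gene lin-14 (X, 11465560 to 11485871, plus strand) held the highest-ranked peak of the 7. The peak (X, 11482751 to 11483040) had a pooled signal of 41.4, as the authors' caller gave it, and a pooled rank of 394. Its ranks were 412, 227 and 3266 in replicates 1, 2 and 3, a mean of 1302 ± 1704 (SD, n = 3). It was thus among the 682 highest in replicates 1 and 2 and well below them in replicate 3. The summit lay in an intron, 17336 bp downstream of the outer 5′ end and 2535 bp downstream of the nearest annotated 5′ end, that of the shorter transcript. No window of another protein-coding gene held it.

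lin-14 held 8 pooled peaks in all, of which 6 were intronic, 1 upstream and 1 in an exon outside the coding sequence. The upstream peak (X, 11464103 to 11464392) was centred 1312 bp before the gene. It had a pooled rank of 1430 and ranks of 1947 and 840 in replicates 1 and 2. By the overlap rule it was not found in replicate 3, although a replicate 3 peak ranked 9541 covered part of it. A second intronic peak (X, 11481059 to 11481348) ranked 1941 in the pooled list and 7266, 5134 and 12941 in replicates 1, 2 and 3. Its summit lay 843 bp downstream of the 5′ end of the shorter transcript, and it is the lin-14 peak shown above with a pair of GATA-factor words. A peak in the last part of the gene (X, 11484489 to 11484778) ranked 2019, with replicate ranks of 15908, 21344 and 3975. These 2 and the highest peak were found in all 3 replicates. The other 4 ranked 4803 to 22769 in the pooled list, and each was found in 1 or 2 replicates.

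Its partner lin-28 (8407630 to 8410804 of chromosome I, minus strand) held 3 pooled peaks of similar rank and no IDR peak. The highest lay 301 bp upstream of the gene, at 8410960 to 8411249, with a pooled rank of 4336. It ranked 3714 and 1570 in replicates 1 and 2 and was not found in replicate 3. The next, at 8409558 to 8409847, had its summit in an exon that is coding in at least 1 transcript. Its pooled rank was 5269, with ranks of 5660 and 1031 in replicates 1 and 2. The third, in an exon outside the coding sequence near the end of the gene, ranked 5695, with 16256 in replicate 1 and 9220 in replicate 3. All 3 summits also lay in the window of a neighbour, F02E9.7 or F02E9.3, so the gene they belong to is not resolved.

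lin-46 (V, 12968855 to 12970730, plus strand), whose product acts downstream of lin-28, had the lowest-ranked best peak of the 7. Its single pooled peak (V, 12969182 to 12969471) lay in an intron at rank 22851 and was found in replicate 1 alone, at rank 11872. The best peaks in its window in replicates 2 and 3 ranked 12898 and 12024 and overlapped no pooled peak, so the 3 lists placed their highest lin-46 peak at different positions. The pooled summit also lay in the windows of R186.3, pnn-1 and R186.8.

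hbl-1 (X, 5822142 to 5827755, plus strand) held 4 pooled peaks and no IDR peak. The highest (X, 5820077 to 5820366) lay 1920 bp upstream, with a pooled rank of 5589 and ranks of 3708 and 2289 in replicates 2 and 3. It was not found in replicate 1, whose only peak in the hbl-1 window ranked 27632. The 101 bases at the summit of this highest peak overlapped an exon of another gene, F13D11.20. A peak in a coding exon had the same pattern, with a pooled rank of 12392, ranks of 12526 and 2658 in replicates 2 and 3, and none in replicate 1. The peak ranked 5878 was found in replicate 1 alone by the overlap rule, although a replicate 3 peak ranked 22996 covered part of it. The summit of the peak ranked 5878 also lay in the window of acp-5. The peak ranked 7555 was found in no replicate. Replicates 2 and 3 thus ranked hbl-1 above replicate 1, while for lin-41 replicates 1 and 2 ranked the gene above replicate 3.

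lin-42 (II, 1233236 to 1252359, minus strand) held 11 pooled peaks, the most of the 7, in a window of 22.1 kb. The highest (II, 1239572 to 1239861) had a signal of 31.8 and a pooled rank of 877, outside the 682 of the IDR list. It ranked 2663, 2722 and 262 in replicates 1, 2 and 3, a mean of 1882 ± 1404 (SD, n = 3), and so was among the 682 highest in replicate 3 alone. Its summit lay in a coding exon, 384 bp downstream of the nearest of the annotated 5′ ends and 12642 bp downstream of the outer one. A second, intronic peak (II, 1247037 to 1247326) ranked 1457, with ranks of 4279 and 1930 in replicates 1 and 3 and none in replicate 2. The peak nearest the outer 5′ end, 109 bp inside the gene, ranked 5918 and was found in replicate 3 alone, at 5695. The remaining 8 ranked 13236 to 28759 in the pooled list. Of the 11, 7 were found in 1 replicate, 1 in 2, 1 in all 3 and 2 in none.

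The late gene lin-41 (9334800 to 9342496 of chromosome I, minus strand) held the other IDR peak. The peak, at 9343864 to 9344153, had a signal of 39.4 and a pooled rank of 463. Its summit lay 1513 bp upstream of the gene and in the window of no other protein-coding gene. It ranked 109 in replicate 1 and 1700 in replicate 2 and was not found in replicate 3, where the best peak in the lin-41 window, elsewhere in the gene, ranked 8971. Replicate 1 therefore placed this peak far above the other replicates, and no mean over 3 replicates exists for it. Of the other 3 lin-41 peaks, an intronic one ranked 12728, and those ranked 29546 and 29881 were near the bottom of the list.

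lin-29 (II, 11917642 to 11935343, minus strand), the last switch of the pathway, held 8 pooled peaks and none in the IDR list. The highest (II, 11923240 to 11923529) was intronic, with a pooled rank of 4344 and ranks of 13112 and 7693 in replicates 2 and 3. The 7 others ranked 7163 to 27131. By the overlap rule no lin-29 peak was found in all 3 replicates, with 4 found in 1 and 4 in 2. The peak ranked 10234 was found in replicates 1 and 2, at 7120 and 8798. Part of it was covered by the highest replicate 3 peak in the window, ranked 2411. The only lin-29 summit upstream of the gene, 722 bp before it, ranked 20844.

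The members were ordered by the rank of their best peak in each replicate, averaged over the 3 replicates, with the caution that the best peak need not be the same peak in each list. lin-14 came first at 1302 ± 1704, then lin-42 at 1882 ± 1404 and lin-41 at 3593 ± 4725 (SD, n = 3 each). lin-28 followed at 4655 ± 4175, lin-29 at 5917 ± 3239, hbl-1 at 11210 ± 14240 and lin-46 at 12265 ± 554 (SD, n = 3 each). Every pair of neighbours in this order had overlapping ranges of ranks, so the neighbours do not differ beyond their spread. The lin-46 values, 11872 to 12898, did not overlap those of lin-14, lin-42, lin-41, lin-28 or lin-29, whose lowest-placed value was 9220, and they lay inside the range of hbl-1. No test was run on these ranks.

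**Figure D2:**
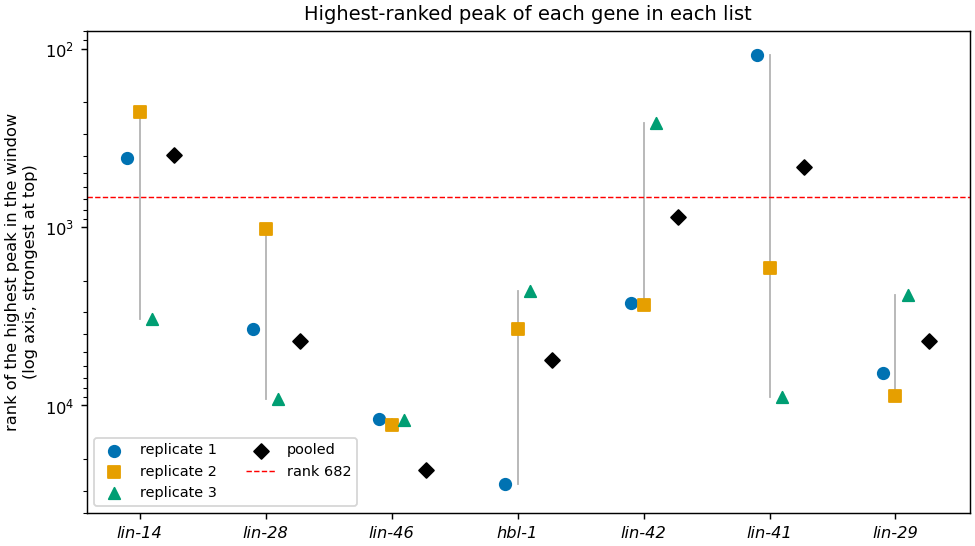
Rank of the highest peak in the window of each gene (log axis, strongest at the top) in replicates 1, 2 and 3, joined by a line over their range, and in the pooled list; the dashed line is rank 682. The replicates of lin-41 run from 109 to 8971 and those of hbl-1 from 2289 to 27632, while those of lin-46 lie between 11872 and 12898.

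Set among all 19973 protein-coding genes, the positions were as uneven. In the pooled list 2.37% of genes had a higher-ranked best peak than lin-14, 2.81% than lin-41 and 5.21% than lin-42. The shares were 23.2% for lin-28, 23.2% for lin-29, 28.8% for hbl-1 and 72.6% for lin-46. Within single replicates the share for lin-14 was 2.45%, 1.47% and 18.6% in replicates 1, 2 and 3, and for lin-41 it was 0.736%, 10.2% and 41.4%. lin-46 stood near the middle of all genes in each replicate, at 49.5%, 52.3% and 50.6%.

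Longer windows held an IDR peak in a larger share of genes. The members' windows ran from 4.88 to 23.3 kb with a median of 10.7 kb, against a median of 5.03 kb for all protein-coding genes. Of all genes with windows under 5 kb, 3.04% had an IDR peak, then 4.56% at 5 to 10 kb, 6.7% at 10 to 20 kb and 12% at 20 kb or more. lin-14, lin-29 and lin-42 were among the 300 genes of the longest class, and 1 of the 3 had an IDR peak. lin-41 fell in the class of 10 to 20 kb. The part of window length in the members' count was not tested. Per length, the members held 0.207 IDR peaks per 10 kb, which is 2 peaks in 96.5 kb, against 0.0705 per 10 kb over all gene windows. In the pooled list they held 4.04 peaks per 10 kb against 3.15 over all gene windows, and the best pooled rank had a median of 4336 among members and 8732 among all genes with a peak. For all genes that median also moved with window length. It was 10625, 8266, 5740 and 3427 from the shortest class to the longest. The part of window length in the members' median was not tested.

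**Figure D3:**
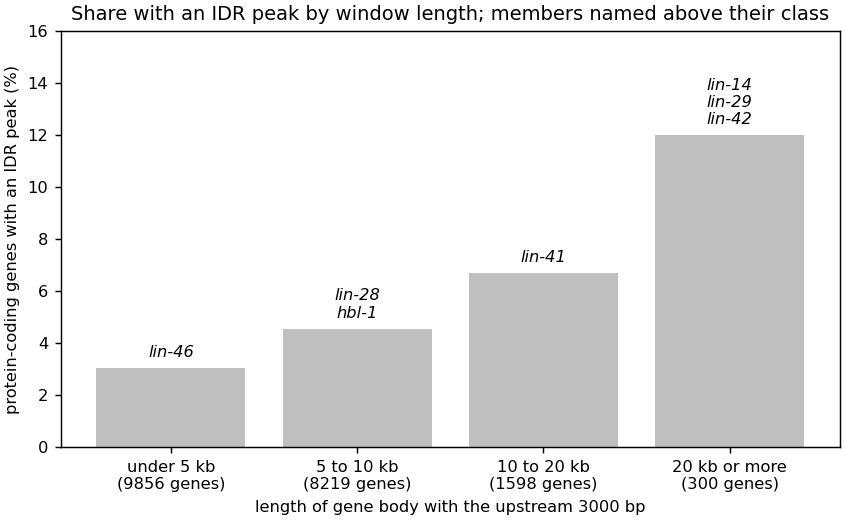
Share of protein-coding genes with an IDR peak in the gene body or the upstream 3000 bp, in percent, by the length of that window; the members of each class are named above its bar, and of these lin-14 and lin-41 had an IDR peak. The share runs from 3.04% in the shortest class to 12% in the longest.

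Of the 39 pooled peaks across the 7 windows, 20 had the summit in an intron and 7 in a coding exon. In 4 it lay in an exon outside the coding sequence and in 8 upstream of the gene. The outermost inside the upstream edge were 2835 bp before lin-41, at rank 29546, and 2893 bp before lin-42, at rank 22007. The nearest beyond it were 3579 bp before hbl-1, at rank 9705, and 3632 bp before lin-46, at rank 16562. Of the 39, 8 also lay in the body or window of another protein-coding gene, and neither IDR peak was among them.

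Few of the members' peaks recurred in every replicate. Replicate 1 held 23 of the 39 (59.0%, 95% exact binomial interval 42.1 to 74.4), against 52.7% of all pooled peaks. Replicate 2 held 16 (41.0%, 25.6 to 57.9), against 38.8%, and replicate 3 held 19 (48.7%, 32.4 to 65.2), against 40.7%. Found in all 3 were 4 of the 39 (10.3%, 2.87 to 24.2), against 6.87% of all pooled peaks. These 4 were the lin-14 peaks ranked 394, 1941 and 2019 and the lin-42 peak ranked 877. Each interval includes the share over all pooled peaks, and peaks of 1 gene share a locus, so the intervals cover the counting of peaks only. Of all 682 IDR peaks, 75.7% were found in all 3 lists. The lin-14 IDR peak was, and the lin-41 IDR peak was not.

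GATA words were at the members' summits in shares that could not be told from those over all pooled peaks at this number of peaks. TGATAAG lay within 50 bp of the summit, on either strand, in 0 of 39 peaks (95% exact binomial interval 0 to 9.03%), against 4.93% of all pooled peaks. Its shorter form TGATAA was at 1 of 39 (2.56%, 95% exact binomial interval 0.0649 to 13.5), the lin-42 peak ranked 24424 shown above, against 13.4% of all. WGATAR, the general GATA-factor word that includes both, was at 7 of 39 (17.9%, 7.54 to 33.5), against 23.6% of all. Each of these 3 intervals includes the share over all pooled peaks, that of TGATAA only narrowly. WGATAR was in 17 of 78 windows centred 500 bp to either side of the members' summits (21.8%, 13.2 to 32.6). Over all pooled peaks it was in 19.9% of such flanks. TGATAA was in 4 of the members' 78 flanks (5.13%, 1.41 to 12.6), against 9.5% of all flanks. TGATAAG was in 3 (3.85%, 0.8 to 10.8), against 1.775%. The members' shares of WGATAR and TGATAA at summits thus lay inside the intervals of their own flanks. The 0 of TGATAAG lay below its flank interval, but the flank share lay inside the summit interval of 0 to 9.03%.

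The 2 IDR peaks had none of these words within 50 bp of the summit, whereas TGATAAG was at 36.7%, TGATAA at 59.2% and WGATAR at 68.5% of the 289 IDR peaks ranked 394 to 682, a stretch that holds both and was set after their ranks were known. The lin-42 peak ranked 877 had none either. With 2 peaks, no share for the members can be told from these. The lin-14 IDR peak held GATAAG, which is shorter than TGATAAG and was searched after the peak's sequence had been seen, on both strands and within 50 bp. GATAAG was at 4 of the members' 39 summits (10.3%), against 7.49% of all pooled summits and 46.6% of IDR summits. The 4 were the lin-14 peaks ranked 394 and 1941, the lin-29 peak ranked 27131 and the lin-41 peak ranked 29546. GC content over the 101 bases had a median of 40.6% at the members' 39 summits and 37.6% over all pooled summits.

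**Figure D4:**
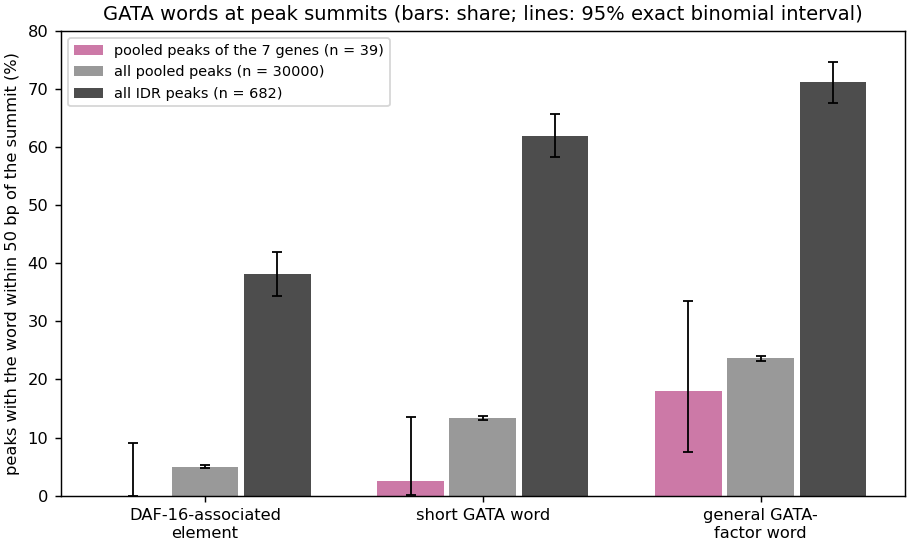
Share of peaks, in percent, with TGATAAG (the DAF-16-associated element), TGATAA (the short GATA word) and WGATAR (the general GATA-factor word) within 50 bp of the summit, for the 39 pooled peaks of the 7 genes, all 30000 pooled peaks and all 682 IDR peaks, which are part of the pooled list; lines are 95% exact binomial intervals. The members' shares are 0%, 2.56% and 17.9%, against 4.93%, 13.4% and 23.6% over all pooled peaks.

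Copies of TGATAAG were present in the members' windows at the usual density. The 7 windows held 18 copies, or 1.87 per 10 kb, against 1.86 per 10 kb in the nuclear genome. lin-14 and lin-42 had 6 each, lin-29 had 3, hbl-1 had 2, lin-41 had 1, and lin-28 and lin-46 had none. A pooled summit within 50 bp of the whole word was found at none of the 18. Of the 18686 copies in the nuclear genome, 8.7% had one and 1.66% had an IDR summit. No interval was computed for the 18, a small number, and the genome shares also cover copies outside gene windows. No difference is therefore read from these values. The nearest approach was at lin-14, where the centre of a copy lay 49 bp from a pooled summit. The nearest copies to a summit at lin-42, lin-29, hbl-1 and lin-41 were 101, 169, 282 and 968 bp away.

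Other genes of the heterochronic pathway were counted from a list of 25, made up of 19 protein-coding and 6 non-coding genes. Of these, 3 (12%) had an IDR peak, namely nhl-2, blmp-1 and kin-20, against 4.1% of all protein-coding genes. A pooled peak of any rank was present for 23 of the 25, against 81.2% of all protein-coding genes. nhl-2, which encodes a TRIM-NHL cofactor of microRNA function, had the highest (III, 4899752 to 4900041), 812 bp upstream, with a pooled rank of 33 and ranks of 22, 48 and 2379 in replicates 1, 2 and 3. No WGATAR lay within 50 bp of that summit, which was also in the window of tag-340. The 101 bases there overlapped an exon of F26F4.14. blmp-1, which encodes a zinc-finger transcription factor of the epidermis, had 2 IDR peaks. The higher, 215 bp upstream, ranked 97 in the pooled list and 47, 869 and 4130 in the replicates. The lower, 432 bp inside the gene, ranked 363, with 542 and 703 in replicates 1 and 2 and none in replicate 3. Both blmp-1 summits held TGATAAG within 50 bp, unlike the 2 IDR peaks of the members. Among lower-ranked peaks of the list, TGATAAG was also at the let-7 peak ranked 7422 and an alg-1 peak ranked 19575.

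kin-20, which encodes a casein kinase related to Doubletime, had an intronic IDR peak (X, 15276327 to 15276616) with a pooled rank of 537. It ranked 683 and 667 in replicates 1 and 2 and was not found in replicate 3, and its summit held TGATAA. The microRNA genes of the list are given although none had an IDR peak, a choice made after their values were seen. Of these, lin-4 had no pooled peak, mir-48 and mir-241 shared 1 at rank 28009, let-7 had 4 with a best rank of 7422, and mir-84 had 1 at rank 1009. The mir-84 peak, 2255 bp before the gene, had ranks of 3823, 1348 and 19263 in replicates 1, 2 and 3.

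The gene pattern most like that of lin-14 was sought among all protein-coding genes with a peak in each replicate list, by the distance between their best ranks on a log10 scale over 3 replicates. The nearest was hrg-1, with best ranks of 308, 210 and 2674 and a distance of 0.157. F49E12.10 and drd-1 followed, both at 0.160, with the same best ranks of 320, 255 and 2562. Both also had a pooled best rank of 155, so they appear to share their peaks and count as 1 likeness. These are likenesses of 3 ranks and nothing more.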

How the data were processed

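Per the README files the authors deposited, peaks were called for every replicate and for the 3 pooled, against a control not analysed here. The deposited signal in column 7 of each ce11 list was used to rank peaks within a list, ties sharing the best rank. Not given in the sources used here are the peak caller, the aligner and the cut-off applied to the IDR. The ce10 lists were not used.

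Genes came from Ensembl release 115 and sequence from RefSeq, both on WBcel235, which is ce11. The 5 microRNA genes were matched through their WormBase identifiers. Positions are 1-based. A pooled peak was found in a replicate when 1 of its peaks covered at least 50% of it. All 7 members were named whatever their values. The 25 other pathway genes were all counted, and by rule those with an IDR peak in the window were named with values. The members, lists and words were chosen with earlier results of these data known. The window, match and word functions were tested on simulated data. Intervals are 95% Clopper-Pearson intervals and cover counting error only. No test was run, since there was 1 group. No paired analysis was possible because the study has a single group. The replicates are separate biological replicates of 1 strain, per the labels. Ranks and intervals were computed with pandas 2.3.3 and SciPy 1.17.1 in Python 3.11.15.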

Additional observations from a re-analysis of the deposited data

How the results depend on the processing

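The windows, the peak lists, the overlap rule and the word reach were each varied. With 1000 bp upstream, or with the gene body alone, 1 member and 1 IDR peak were left, those of lin-14, because the lin-41 summit lies 1513 bp upstream. With the stricter IDR list, cut to the higher-ranked peaks of an even split, 0 members had a peak, since the best ranked 394. The 39 pooled peaks became 18 in the 10000 highest pooled peaks. The 4 peaks found in all 3 replicates became 6 when 1 bp of overlap was enough, and stayed 4 when summits had to lie within 100 bp. They became 8 to 10 when 1 replicate was left out and the other 2 were asked for, which is a weaker demand by construction. The single summit with TGATAA became 0 with a reach of 25 bp, 3 with 100 bp, 2 with 5000 bp upstream and 0 in the 10000 highest pooled peaks. Of all the alternative values, 24 stayed within 1.5 times the reported count or within 1 SD of the reported mean and 14 did not. The mean ranks of the highest lin-14 and lin-42 peaks were among the 24 by construction. Leaving out 1 of 3 values cannot move a mean by as much as 1 SD, so these show nothing about stability. Without replicate 3 the mean rank of the lin-14 IDR peak was 319.5, against 1302 with all 3. Depth is unknown and limits every rank.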

Other observations

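The replicate lists held peaks in the members' windows that overlapped no pooled peak. They were 10 of 34 in replicate 1 (29.4%), 22 of 41 in replicate 2 (53.7%) and 26 of 49 in replicate 3 (53.1%), against 42.2%, 53.7% and 52.7% of all peaks of those lists. lin-14 had 11 of them in replicate 2, out of 18 peaks there. The highest of these ranked 1091 in replicate 2 and lay 52 bp upstream of the outer 5′ end of lin-14 (X, 11465353 to 11465662). lin-42 had 10 in replicate 3, out of 16 peaks there, the highest at rank 9149.

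The highest lin-29 peak, at rank 4344, lay in a repeat. Its 101 bases (chrII:11923335-11923435, minus strand) are shown with TTAGGC, the repeat unit of the telomeres of this species, in capitals.
lin-29 rank 4344: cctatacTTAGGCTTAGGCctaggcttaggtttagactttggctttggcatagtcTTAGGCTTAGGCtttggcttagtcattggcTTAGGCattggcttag
It held 5 copies on either strand, and the lin-29 peak ranked 8507 held 8. These were the 2 of the members' 39 peaks with at least 5 copies, against 49 of all 30000 pooled peaks (0.163%). The word was chosen after the sequence had been seen. How reads from such repeats were placed is not given in the sources used here, and the part of the repeat in these ranks was not tested.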
